A study of Rattus norvegicus with 48 samples.

Results

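Liver miRNAs of male Sprague-Dawley rats given thioacetamide (TAA) at the high dose of 45 mg/kg once daily for 7 days (high dose 7-d) were compared with those of rats given vehicle alone for 7 days (control 7-d). The members are the 3 libraries of high dose 7-d, replicates 25, 26 and 27, and the 3 libraries of control 7-d, replicates 4, 5 and 6, which is 6 of the 48 libraries of the series. The rule that chose them used labels alone. The rest of the series is made of rats given TAA at 4.5 mg/kg (low dose), 15 mg/kg (middle dose) or 45 mg/kg, or vehicle, for 3, 7, 14 or 28 days, with 3 livers in each of 16 groups. Low dose 7-d, middle dose 7-d, high dose at 14 and 28 days and the controls of those days are used below only to place high dose 7-d. All rats were male and of the same strain, and each library is from the liver of 1 rat, so a rat is the replicate.

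TAA is a hepatotoxicant that liver enzymes convert into reactive metabolites. These bind to proteins and lipids, kill hepatocytes around the central veins, and with repeated dosing lead to inflammation, fibrosis and, after long exposure, tumours. A miRNA is cut from a hairpin precursor that can release a mature strand from each of its arms, 5p and 3p. The mature strand pairs with target mRNAs mainly through its seed, bases 2 to 8, and lowers their translation and stability. In bulk liver a lower level can come from fewer cells of a type or from less RNA per cell, and these cannot be told apart.

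The 6 libraries held between 8399722 and 14906217 reads assigned to mature miRNAs, so that the detection limit of 3 reads, which covers counting error only, stood between 0.201 and 0.357 RPM (reads of a miRNA scaled to a common library size by the library's total). Of 664 mature miRNAs with a read, 301 were tested, those reaching 5 RPM in 3 or more of all 48 libraries. Pearson's r of log2 (count + 1) over the tested miRNAs was between 0.993 and 0.998 for the pairs of control 7-d libraries and between 0.971 and 0.980 for the pairs of high dose 7-d libraries. The treated livers were more variable: the median coefficient of variation over the tested miRNAs was 23.3% in high dose 7-d and 9.52% in control 7-d, and it was larger in high dose 7-d for 249 of the 301. The summed level of 5 hepatocyte markers, led by miR-122-5p and miR-192-5p, was between 223723 and 271581 RPM in the 6 libraries. The summed levels of markers of pancreas (355 to 568 RPM), brain (132 to 213 RPM) and skeletal or heart muscle (19.9 to 47.8 RPM) were low. Those of kidney summed to between 43004.6 and 61534.5 RPM. That list holds miR-10a-5p, 1 of the 5 most abundant miRNAs of the 6 libraries, so it does not tell kidney from liver.

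Mature sequences were matched by name in RefSeq (GRCr8) for 270 of the 301 tested miRNAs and for 55 of the 64 differentially expressed miRNAs (DEMs) described below. They are printed 5′ to 3′ with the seed in capitals. The first set is shown because its members have a single seed and yet behaved differently, 2 being DEMs and the third not.
miR-34a-5p: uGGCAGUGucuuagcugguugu
miR-449a-5p: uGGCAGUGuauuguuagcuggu
miR-34c-5p: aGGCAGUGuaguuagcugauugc
The second set is the pair of 3p strands from neighbouring hairpins with a single seed, the only seed besides that of miR-34a-5p with more than 1 DEM among the matched miRNAs, and the 5p strand of 1 of them.
miR-132-3p: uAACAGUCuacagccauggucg
miR-212-3p: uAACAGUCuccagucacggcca
miR-212-5p: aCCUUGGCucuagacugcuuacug
The third set holds the 2 strands of mir-21, whose changes differed in size, and their hairpin (chr10:71902600-71902691, minus strand) is given with both arms in capitals.
miR-21-5p: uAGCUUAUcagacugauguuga
miR-21-3p: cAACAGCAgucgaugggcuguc
Mir21 hairpin: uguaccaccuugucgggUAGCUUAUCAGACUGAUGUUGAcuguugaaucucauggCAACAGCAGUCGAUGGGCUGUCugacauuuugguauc
The fourth set holds the rodent miRNAs with the smallest p-values. Those of the miR-466 family share repeats of U and G or of A and C, and differ in their seeds.
miR-6329: aAUGUGACucagcuaucugaaca
miR-3473: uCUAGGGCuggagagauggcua
miR-466b-5p: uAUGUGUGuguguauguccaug
miR-466c-5p: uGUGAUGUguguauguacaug
miR-466b-3p: aUACAUACacacacacauacac
miR-466c-3p: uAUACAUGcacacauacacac
miR-466b-2-3p: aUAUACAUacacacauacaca
The fifth set pairs each of 3 DEMs with a tested relative that has the same seed and was not a DEM.
miR-146b-5p: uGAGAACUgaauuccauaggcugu
miR-146a-5p: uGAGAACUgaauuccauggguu
miR-190b-5p: uGAUAUGUuugauauuagguu
miR-190a-5p: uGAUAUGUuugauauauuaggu
miR-23b-3p: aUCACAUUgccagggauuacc
miR-23a-3p: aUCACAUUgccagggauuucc
The last set holds the red blood cell miRNAs that were lower.
miR-144-5p: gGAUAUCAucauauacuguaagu
miR-144-3p: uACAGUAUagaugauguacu
miR-451-5p: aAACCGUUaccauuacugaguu

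The first question is which miRNAs the high dose changed in 7 days. A miRNA was called a DEM where its fold change exceeded 1.5 and its p-value, not adjusted, was under 0.05 in edgeR's quasi-likelihood F-test of 3 livers against 3. There were 64 DEMs among the 301 tested miRNAs (21.3%), of which 54 were higher (17.9%) and 10 were lower (3.32%) in high dose 7-d. At a Benjamini-Hochberg adjusted p-value below 0.05, 39 of the 64 remained (13%). The changes were mostly moderate, with 5 DEMs above 4-fold, 32 between 2-fold and 4-fold and 27 below 2-fold. The RPM ranges of the groups did not overlap for 59 of the 64, beside 35.5% of all tested miRNAs. The median log2 fold change of all tested miRNAs was 0.14. The excess of higher over lower DEMs depended in part on the scaling: with the size factors of DESeq2, which moved the median of all miRNAs by -0.13, 42 DEMs were higher and 21 lower.

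**Figure D1:**
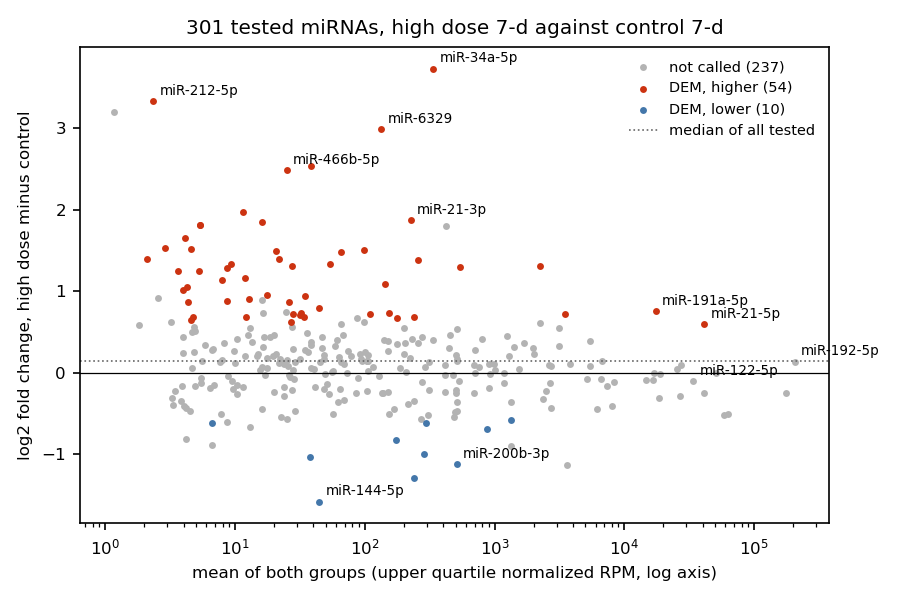
Log2 fold change of the 301 tested miRNAs, high dose 7-d minus control 7-d, against the mean level of both groups in upper quartile normalized RPM on a log axis. Red points are the 54 higher DEMs and blue points the 10 lower DEMs. The grey point at a log2 fold change of 3.20 that was not called is miR-743b-3p, which was high in 1 treated library.

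The largest change was that of miR-34a-5p, a target of p53 that slows the cell cycle and promotes apoptosis. It stood at 43.3, 47.7 and 46.5 RPM in control 7-d and at 567, 519 and 817 RPM in high dose 7-d. Every treated liver was far above every control liver. The log2 fold change was 3.73 ± 0.26 (SE, n = 3 and 3), or 13.3-fold, with an adjusted p of 0.000137 in edgeR's quasi-likelihood test. Its other strand, miR-34a-3p, was below the minimum for testing, with a count of 1 in each control library and counts of 39, 37 and 8 in replicates 25, 26 and 27. The hairpin of miR-34a lies at chr5:165815952-165816053 on the plus strand (GRCr8) within the long noncoding RNA LOC103692514. Of the 3 tested members of the miR-34 and miR-449 list, 2 were higher, beside 17.9% of all tested miRNAs. miR-449a-5p, known mainly from multiciliated epithelium, was between 2.62 and 3.34 RPM in the controls and between 5.50 and 9.41 RPM in the treated livers, a log2 fold change of 1.24 ± 0.31 (adjusted p = 0.0400, edgeR). miR-34c-5p was between 53.8 and 56.7 RPM in the controls and between 53.6 and 68.8 RPM in the treated livers, with a log2 fold change of 0.02 ± 0.16 that did not pass. The sign of the miR-34c-5p value changed with the scaling.

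The smallest p-value was that of miR-6329, a rodent miRNA with little known function. It was at 31.1, 27.4 and 29.4 RPM in the controls and at 235, 256 and 240 RPM in the treated livers. Both groups were tight, and the log2 fold change was 2.99 ± 0.15, or 7.94-fold (adjusted p = 2.94e-05, edgeR). Its hairpin lies at chr8:61334239-61334329 on the minus strand (GRCr8) within the span of Rdx, which encodes radixin, a protein that ties actin to the plasma membrane and is abundant at the bile canaliculi of hepatocytes. miR-3473 was at 8.10, 6.22 and 6.18 RPM in the controls and at 28.2, 21 and 27.8 RPM in the treated livers, a log2 fold change of 1.85 ± 0.23 (adjusted p = 0.00390, edgeR). Its hairpin lies at chr13:42051691-42051757 on the plus strand within the span of Zranb3. Of the 15 tested rodent miRNAs of the list, 7 were higher and 1, miR-1843a-3p, was lower, beside 17.9% and 3.32% of all tested miRNAs. The list was drawn with earlier results of these data known, so these shares are a description. It holds miR-1839-5p but not the other strand, miR-1839-3p, a higher DEM. miR-674-5p was between 9.10 and 11.5 RPM in the controls and between 22.5 and 36.4 RPM in the treated livers. The 2 strands of miR-3559 moved by nearly equal amounts, 1.39 ± 0.31 for the 5p strand and 1.33 ± 0.24 for the 3p strand on the log2 scale. miR-743b-3p was not called: it was at 5.87 RPM in replicate 27 and between 0.119 and 0.278 RPM in the other 5 libraries.

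All 6 tested miRNAs of the miR-466 family were higher, beside 17.9% of all tested miRNAs, with a median log2 fold change of 1.73. The family is encoded in rodents by repeated hairpins in an intron of Sfmbt2. The call of miR-466b-3p (1.39) was lost with all 12 controls of the series pooled (0.35), which include the shallow control 3-d replicate 1 (293331 reads). miR-466b-5p was at 7.02, 7.39 and 7.75 RPM in the controls and at 46.1, 32.6 and 51.0 RPM in the treated livers. The log2 fold change was 2.48 ± 0.24 (adjusted p = 0.00119, edgeR). miR-466c-5p, the most abundant member, was between 43.6 and 55.4 RPM in the controls and between 105 and 177 RPM in the treated livers, a log2 fold change of 1.5 ± 0.26. The 3p strands were rarer, and all were between 0.991 and 2.86 RPM in the controls and between 2.59 and 9.25 RPM in the treated livers. miR-466b-2-3p and miR-466b-4-3p had the same count in every library and are 1 measurement under 2 names. With sequences this alike, reads can be split among the members, so the values of single members are uncertain.

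Of the 15 tested miRNAs of the fibrosis and stellate cell list, 7 were higher and 0 lower, with a list median of 0.46, beside 17.9% higher, 3.32% lower and a median of 0.14 over all tested miRNAs. The list joins miRNAs of fibrotic liver with those of hepatic stellate cells, the cells that make scar collagen. The 2 strands of mir-21, a miRNA that rises in many injured and fibrotic tissues, changed by different amounts. miR-21-5p was at 35972, 35604 and 24355 RPM in the controls and at 46959, 42750 and 61574 RPM in the treated livers. The groups were separate but close, and the log2 fold change of 0.59 ± 0.23 passed the DEM rule with an adjusted p of 0.140 and the call was lost under TMM normalization (a scaling by trimmed means), among other settings, and without control replicate 6 or high dose replicate 27. miR-21-3p was at 98.3, 106 and 77.1 RPM in the controls and at 309, 367 and 408 RPM in the treated livers. Its log2 fold change was 1.88 ± 0.22 (adjusted p = 0.00304, edgeR). The difference between the strands was not tested. miR-21-5p, like miR-212-3p and miR-191a-5p below, lies outside the rule for named miRNAs and was chosen after its values were seen.

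miR-132 and miR-212 come from hairpins that lie side by side, and are known for their induction by CREB and by stellate cell activation. miR-132-3p was at 4.4, 5.41 and 3.83 RPM in the controls and at 16.4, 18.6 and 21.1 RPM in the treated livers, a log2 fold change of 1.97 ± 0.26 (adjusted p = 0.00405, edgeR). miR-212-5p was at 0.476, 0.270 and 0.490 RPM in the controls and at 3.42, 7.31 and 2.44 RPM in the treated livers. Its log2 fold change of 3.34 ± 0.54 rests on control levels close to the limit of detection, and replicate 26 was well above the other treated livers. miR-212-3p, with the same seed as miR-132-3p, was between 1.19 and 1.67 RPM in the controls and between 3.62 and 5.09 RPM in the treated livers (log2 fold change 1.52 ± 0.31). Of the miRNAs that mark stellate cells and smooth muscle, 2 of 6 were higher, beside 17.9% of all tested miRNAs. miR-214-3p was at 20.4, 21.9 and 27.6 RPM in the controls and at 61.9, 33.7 and 44.8 RPM in the treated livers (0.94 ± 0.26, adjusted p = 0.0502, edgeR), and miR-199a-5p rose from between 176 and 183 RPM to between 210 and 386 RPM (0.69 ± 0.21). miR-145-5p of smooth muscle had a log2 fold change of -0.58 ± 0.22, just short of the fold limit, and was a lower DEM with TMM (-0.64) and DESeq2's size factors (-0.69), under 3 other settings and without any of 3 libraries. The summed level of these 6 markers was between 42726 and 47033 RPM in the controls and between 32191 and 47723 RPM in the treated livers, dominated by miR-143-3p. Of the 5 tested strands of the miR-29 family, which represses collagen mRNAs, only miR-29b-3p was a DEM, beside 21.3% of all tested miRNAs. It was higher (0.71 ± 0.26), a call lost without any of 5 of the 6 libraries. miR-29a-3p had a log2 fold change of -0.33 ± 0.20 and overlapping ranges.

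Of the 9 tested miRNAs of the leukocyte and inflammation list, 2 were higher, a share near the 17.9% of all tested miRNAs. miR-155-5p, which is induced in activated macrophages and lymphocytes, was at 13.7, 13.5 and 18.8 RPM in the controls and at 37.6, 42.5 and 38.9 RPM in the treated livers. The treated livers were alike, and the log2 fold change was 1.30 ± 0.19 (adjusted p = 0.00742, edgeR). miR-146b-5p, which is induced by NF-kB and dampens Toll-like receptor signalling, was at 237, 295 and 393 RPM in the controls and at 650, 579 and 1120 RPM in the treated livers (1.30 ± 0.33). miR-146a-5p, with the same seed, was between 941 and 1492 RPM in the controls and between 888 and 1767 RPM in the treated livers. Of the 5 leukocyte markers, 1, miR-155-5p, passed, and their summed level was between 3111 and 3720 RPM in the controls and between 3092 and 4153 RPM in the treated livers. miR-150-5p of mature lymphocytes was between 544 and 601 RPM in the controls and between 401 and 509 RPM in the treated livers, which did not pass (-0.47 ± 0.16).

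**Figure D2:**
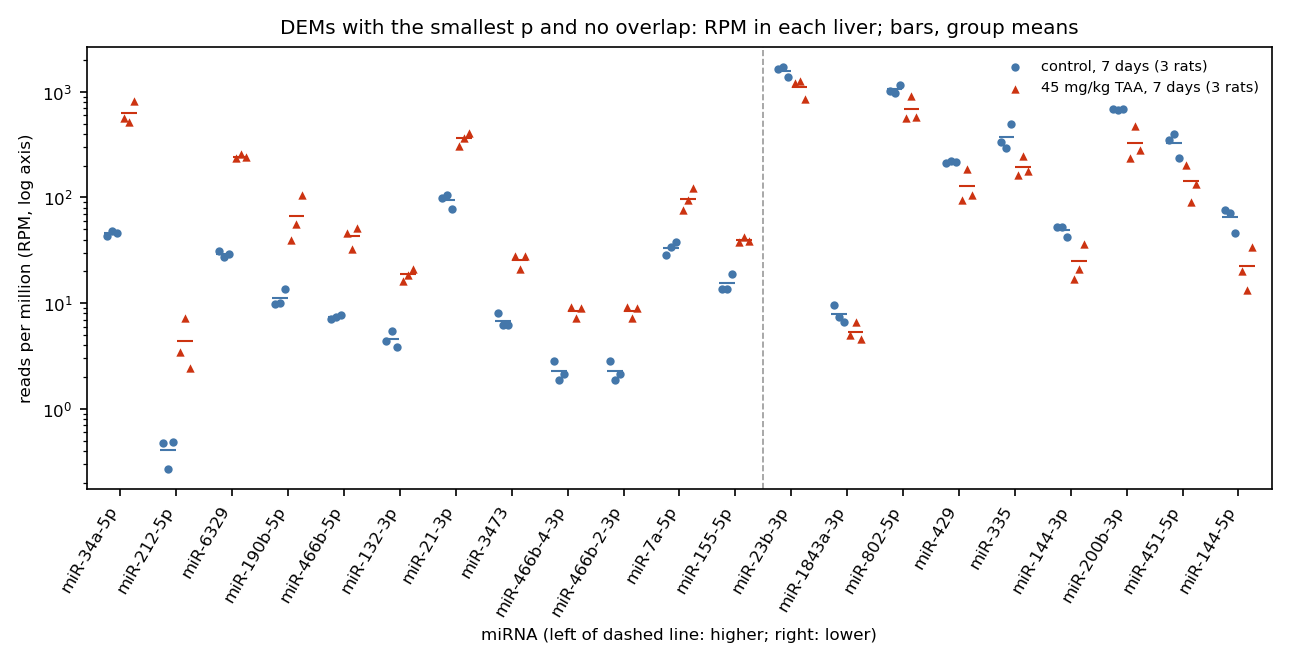
RPM on a log axis in each of the 3 control 7-d livers (blue circles) and 3 high dose 7-d livers (red triangles) for the non-overlapping DEMs of smallest p-value, 12 higher and 9 lower, with bars at the group means. miR-34a-5p goes from between 43.3 and 47.7 RPM to between 519 and 817 RPM; miR-466b-4-3p and miR-466b-2-3p are the same measurement.

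miR-7a-5p and miR-190b-5p, both known best from endocrine and nervous tissue, were also higher. miR-7a-5p was at 28.8, 34 and 37.8 RPM in the controls and at 75.8, 93.5 and 123 RPM in the treated livers (1.48 ± 0.24, adjusted p = 0.00956, edgeR). miR-190b-5p was at 9.76, 10 and 13.7 RPM in the controls and at 39.7, 55.7 and 104 RPM in the treated livers. The treated values of miR-190b-5p were spread widely but were all above the controls, and the log2 fold change was 2.53 ± 0.40 (adjusted p = 0.00903, edgeR). Its relative with the same seed, miR-190a-5p, was between 48.9 and 69.0 RPM in the controls and between 40.3 and 84.9 RPM in the treated livers, with overlapping ranges. All 3 tested miRNAs of the cluster of miR-183, miR-96 and miR-182 (chr4:59752246-59756153, minus strand) were DEMs, beside 21.3% of all tested miRNAs. The cluster is known from sensory organs and from liver tumours. miR-182 was at 1151, 1172 and 1432 RPM in the controls and at 3766, 3905 and 2113 RPM in the treated livers (1.30 ± 0.23, adjusted p = 0.0107, edgeR). Replicate 27 was the lowest treated liver for all 3, and for miR-183-5p (83.9 RPM) and miR-96-5p (10.6 RPM) it lay among or below the controls, which were between 73.8 and 103 RPM and between 11.2 and 12.7 RPM. Of the 3, only miR-182 had an adjusted p below 0.05, and the calls of miR-183-5p and miR-96-5p were each lost without any of 4 libraries.

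The miR-200 family keeps epithelial cells from turning mesenchymal and in liver marks the bile duct epithelium. miR-200b-3p was at 689, 668 and 692 RPM in the controls and at 237, 469 and 280 RPM in the treated livers. The log2 fold change was -1.13 ± 0.25 (adjusted p = 0.0305, edgeR), with replicate 26 closest to the controls. miR-429, from the same stretch of chromosome 5, was at 210, 219 and 218 RPM in the controls and at 95.5, 184 and 106 RPM in the treated livers (-0.82 ± 0.25), again with replicate 26 closest. miR-200c-3p, encoded with miR-141 on chromosome 4, was higher, at between 7.62 and 9.42 RPM in the controls and between 13.3 and 21.3 RPM in the treated livers (0.91 ± 0.24). miR-141-3p did not pass (0.67 ± 0.40), and replicate 26 was its highest liver. Of the 6 tested members of this family 1 was higher, 2 were lower and 3 were not called. Over all tested miRNAs 17.9% were higher and 3.32% lower. The summed level of 6 markers of epithelium and bile duct was between 2716 and 3030 RPM in the controls and between 2291 and 3348 RPM in the treated livers.

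The 2 lower DEMs with the largest changes, miR-144-5p and miR-451-5p, are miRNAs of red blood cells. miR-144-5p was at 76.7, 71.6 and 46.4 RPM in the controls and at 20.1, 13.2 and 34.3 RPM in the treated livers (-1.59 ± 0.40, adjusted p = 0.0400, edgeR). miR-451-5p, from the next hairpin on chromosome 10, was at 349, 398 and 238 RPM in the controls and at 202, 90.9 and 133 RPM in the treated livers (-1.29 ± 0.34). miR-144-3p was between 42 and 53 RPM in the controls and between 16.9 and 36.4 RPM in the treated livers (-1.04 ± 0.33). The abundant red cell miR-486 was between 3734 and 5563 RPM in the controls and between 747 and 3529 RPM in the treated livers, which did not pass (-1.13 ± 0.51). It was a lower DEM under 6 of 12 other settings, TMM (-1.19) and DESeq2's size factors (-1.24) among them, and without high dose replicate 25 (-1.53) or 26 (-0.71). Thus 3 of the 4 red blood cell markers were lower, beside 3.32% of all tested miRNAs. The 3 are strands of neighbouring hairpins of 1 cluster. The groups were separate for all 4, miR-486 included, beside 35.5% of all tested miRNAs. miR-144-3p lost its call without control replicate 5. The summed level of the 4 markers was between 4061 and 6085 RPM in the controls and between 872 and 3768 RPM in the treated livers. The part of blood left in the tissue in the values was not tested.

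Of the 12 tested hepatocyte miRNAs, 1 was lower and 11 were not called, with a list median of -0.14. Over all tested miRNAs 3.32% were lower, 21.3% were DEMs and the median was 0.14. miR-122-5p, the defining miRNA of hepatocytes, was at 35004, 33290 and 34874 RPM in the controls and at 32612, 30182 and 37328 RPM in the treated livers, and its log2 fold change of -0.11 ± 0.13 did not pass. The member that passed was miR-802-5p, a miRNA abundant in liver. It was at 1019, 976 and 1167 RPM in the controls and at 568, 909 and 577 RPM in the treated livers (-0.69 ± 0.21, adjusted p = 0.0708, edgeR), a call lost without high dose replicate 25. Outside these lists, miR-335, the miRNA of an intron of the imprinted gene Mest, was at 337, 293 and 493 RPM in the controls and at 161, 246 and 178 RPM in the treated livers (-1.0 ± 0.24, adjusted p = 0.0385, edgeR). miR-23b-3p was at 1641, 1707 and 1374 RPM in the controls and at 1197, 1270 and 857 RPM in the treated livers (-0.59 ± 0.19), just past the fold limit, and miR-365-3p had overlapping ranges. miR-23b-3p and miR-23a-3p are nearly identical, as the printed sequences show, so that their reads can be confused, and the miR-23b-3p call was lost without any of 3 libraries. miR-455-3p was at 68.5, 69.8 and 54.4 RPM in the controls and at 37.3, 38 and 66.0 RPM in the treated livers. It did not pass (-0.51 ± 0.29), with replicate 27 within the range of the controls. It was a lower DEM with TMM (-0.61), with DESeq2's size factors (-0.64) or Wald test, without a filter, and without high dose replicate 27 (-0.88).

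None of the 5 miRNAs with the highest mean RPM over the 6 libraries was a DEM in the fit used here. miR-192-5p was between 178655 and 226308 RPM over the 6 libraries, and miR-22-3p had a log2 fold change of -0.25 ± 0.10. miR-26a-5p was at 73458, 69881 and 72417 RPM in the controls and at 60504, 54118 and 44593 RPM in the treated livers. Its change of -0.51 ± 0.11 had an adjusted p of 0.0305 in edgeR's test, and was the only 1 of the 40 miRNAs with an adjusted p below 0.05 that stayed under the fold limit. miR-148a-3p was at 32068, 68860 and 48087 RPM in replicates 25, 26 and 27, beside 66138 to 70547 RPM in the controls. Both miR-26a-5p (-0.63) and miR-148a-3p (-0.65) were lower DEMs with DESeq2's size factors, and also with its Wald test and without a filter. miR-26a-5p was so without high dose replicate 25 too, and miR-148a-3p with TMM and without high dose replicate 26 (-0.79). Of the DEMs, 6 had a mean above 1000 RPM in a group, and 15 had a mean below 10 RPM in both. miR-191a-5p was the most abundant DEM besides miR-21-5p, at 11708, 12624 and 13776 RPM in the controls and at 29529, 20800 and 17382 RPM in the treated livers (0.75 ± 0.19). The let-7 and miR-98 guide strands (0 of 9), the miR-30 family (0 of 11) and the list of cell cycle miRNAs led by miR-16-5p (0 of 15) held no DEM. The share of DEMs over all tested miRNAs was 21.3%. Of the 16 tested members of the miR-17 to miR-92a clusters, 3 were higher, a share near the 17.9% of all tested miRNAs, with the smallest p-value for miR-19a-5p (1.51 ± 0.33).

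**Figure D3:**
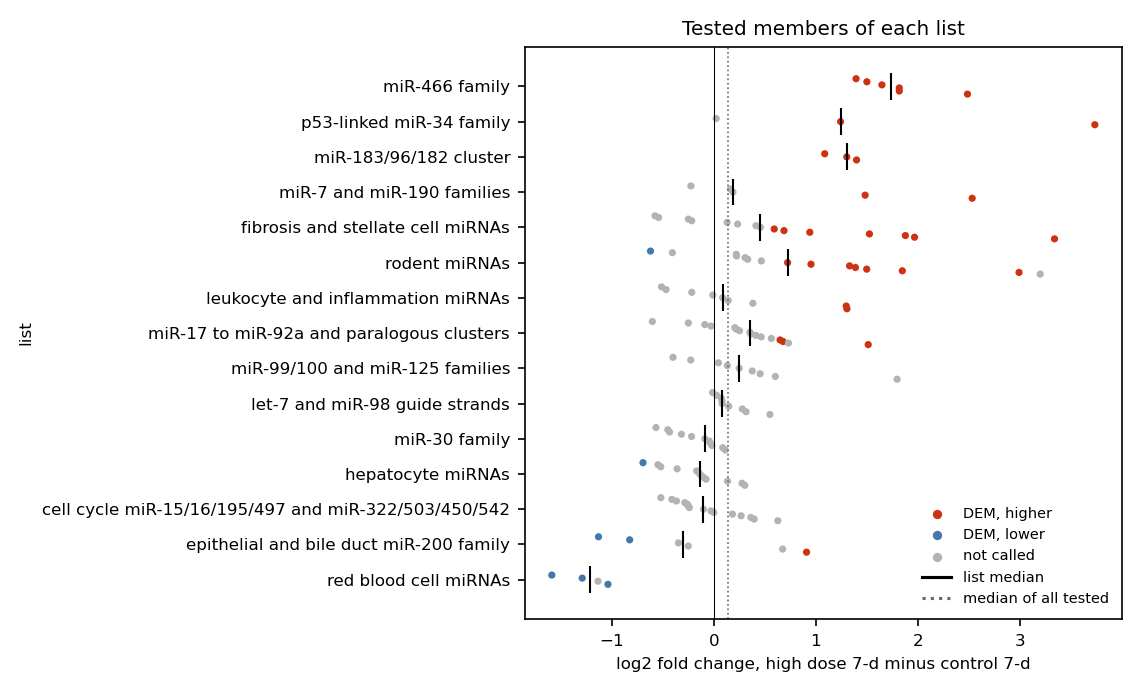
Log2 fold change, high dose 7-d minus control 7-d, of every tested member of 15 lists of miRNAs, with list medians as black bars and the median of all tested miRNAs, 0.14, as a dotted line. All 6 members of the miR-466 list are higher DEMs, beside 17.9% of all tested miRNAs. The red blood cell list lies below 0, and most other lists lie around the median of all miRNAs.

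Replicate 26 carried several high values that were not shared by the other treated livers. miR-100-5p was at 1706 RPM in it, and at 219 and 127 RPM in replicates 25 and 27, beside 148 to 238 RPM in the controls. Its log2 fold change of 1.80 ± 0.87 did not pass. Against control 7-d, miR-100-5p was higher in middle dose 7-d by 2.85 ± 0.17 (adjusted p = 2.17e-05, edgeR). In low dose 7-d its change of 0.50 ± 0.31 did not pass. The 11 members of the miR-99/100 and miR-125 families, of which 9 were tested and 0 were DEMs, summed to 16436 RPM in replicate 26 and to 4922 and 6730 RPM in replicates 27 and 25, beside 6647 to 8347 RPM in the controls. Replicate 26 also had the lowest summed red blood cell level, 872 RPM. The number of DEMs was 79 without it.

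For 99 hairpins both arms were tested. Both strands were DEMs for 8 hairpins, 1 strand for 16 and neither for 75. Over all tested miRNAs 21.3% were DEMs, 17.9% higher and 3.32% lower. All 8 pairs had the same direction: mir-144 was lower on both arms, and mir-21, mir-212, mir-3068, mir-3559, mir-466b-1, mir-466c and mir-674 were higher on both. Where a single arm was called, the other had the same sign for 13 of the 16, and where neither was called the signs were the same for 46 of the 75. There were 36 groups of hairpins within 10000 bases of each other with 2 or more tested miRNAs matched in RefSeq. Of these, 7 held more than 1 DEM, each in a single direction. As 54 of the 64 DEMs were higher, a shared direction in a hairpin or group can follow from that. Some members of a group are strands of 1 hairpin. All 3 tested miRNAs were higher in the cluster of miR-182, in that of miR-132 and miR-212 (chr10:60521771-60522133, plus strand) and in that of 2 hairpins of miR-466b (chr17:72942475-72945568, minus strand). All 3 were lower in the cluster of miR-144 and miR-451 (chr10:63459397-63459640, plus strand). The 2 strands of miR-191a and the 2 of miR-425, from hairpins next to each other on chromosome 8, gave 2 higher DEMs of 4. Of the 363 miRNAs with reads that were below the minimum, 6 had more than 3 counts in every treated library and at most 3 in every control library. miR-34a-3p was 1 of them, and miR-3065-5p had counts of 0, 0 and 3 in the controls and of 20, 23 and 13 in the treated livers. The reverse was seen for 1, miR-451-3p, which shares its hairpin with miR-451-5p.

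The second question is how the high dose stood against the lower doses after the same 7 days. Against low dose 7-d there were 56 DEMs (18.6%), of which 44 were higher and 12 lower at the high dose, and 4 had an adjusted p below 0.05. With the size factors of DESeq2 28 were higher and 24 lower, and by library size alone 67 and 4. Against middle dose 7-d there were 39 DEMs (13%), 33 higher and 6 lower, and 1 had an adjusted p below 0.05. TMM gave 25 and 11, and the size factors of DESeq2 24 and 12. miR-6329 was the only miRNA to pass that limit against both. Its level was between 79.1 and 110 RPM at the low dose and between 94.8 and 121 RPM at the middle dose, beside 235 to 256 RPM at the high dose. The high dose exceeded the low dose by 1.16 ± 0.16 on the log2 scale (adjusted p = 0.0387, edgeR) and the middle dose by 1.20 ± 0.16 (adjusted p = 0.0307, edgeR). The ranges of the low and the middle dose overlapped, and every high dose liver was above both. miR-132-3p was at 6.14 to 7.44 RPM, 6.80 to 12 RPM and 16.4 to 21.1 RPM at the low, middle and high dose, and exceeded the low dose by 1.31 ± 0.22 (adjusted p = 0.0387, edgeR).

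miR-34a-5p had no such order. It was between 380 and 551 RPM at the low dose, between 204 and 339 RPM at the middle dose and between 519 and 817 RPM at the high dose. The high dose differed from the low dose by 0.25 ± 0.24, which did not pass, and from the middle dose by 1.36 ± 0.27, which passed the DEM rule with an adjusted p of 0.0786. miR-190b-5p was between 46 and 71.6 RPM at the low dose and between 23.3 and 32.1 RPM at the middle dose. miR-200b-3p was between 162 and 264 RPM at the low dose, between 533 and 1021 RPM at the middle dose and between 237 and 469 RPM at the high dose. miR-335 was between 177 and 210 RPM at the low dose and between 358 and 557 RPM at the middle dose, and the high dose differed from the middle dose by -1.22 ± 0.23 on the log2 scale (adjusted p = 0.0704, edgeR). For these 4 miRNAs the ranges of the low and the high dose overlapped, and the middle dose lay outside both. miR-122-5p was between 52182 and 54366 RPM at the low dose and between 25923 and 31886 RPM at the middle dose, and the high dose differed from the low dose by -0.85 ± 0.14 (adjusted p = 0.0387, edgeR). Against control 7-d, miR-122-5p was higher at the low dose by 0.75 ± 0.08 (adjusted p = 0.000233, edgeR) and changed by -0.11 at the high dose. The comparisons of each dose with control 7-d use the same 3 control livers.

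**Figure D4:**
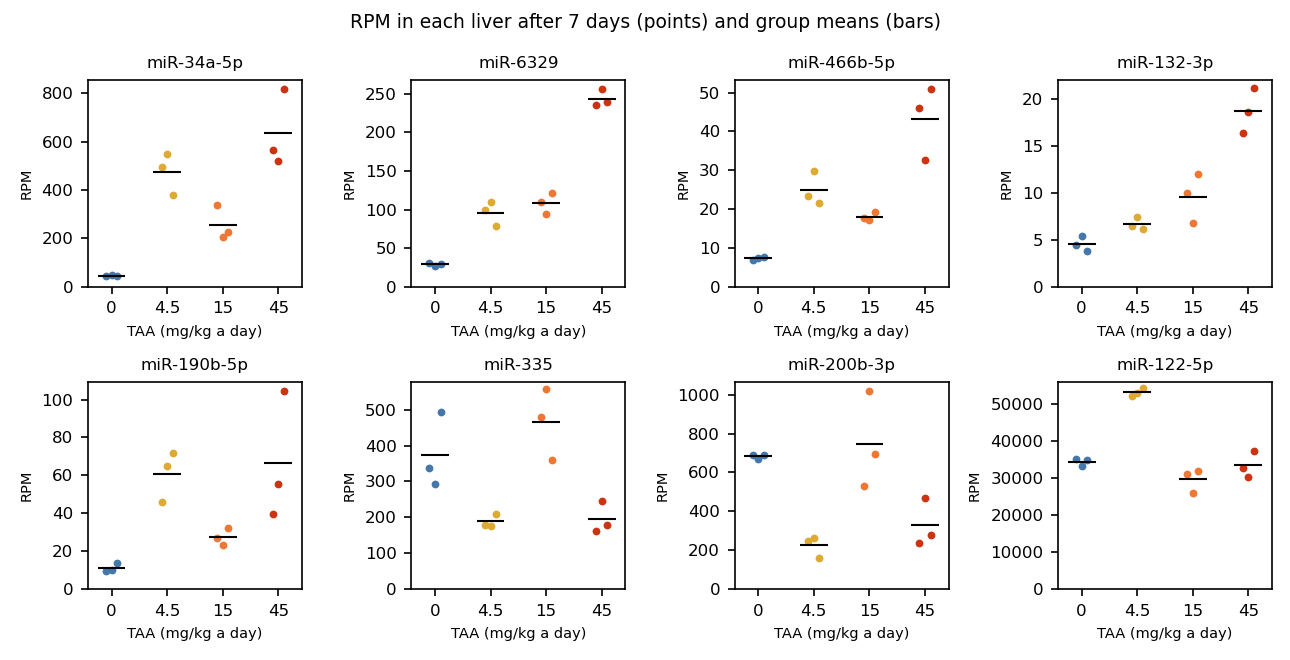
RPM of 8 miRNAs in each liver after 7 days of 0, 4.5, 15 or 45 mg/kg TAA a day (3 livers each), with bars at the group means and linear axes from 0. miR-6329 and miR-132-3p are highest at 45 mg/kg, while for miR-34a-5p, miR-190b-5p, miR-335 and miR-200b-3p the livers at 15 mg/kg lie outside the ranges at 4.5 and 45 mg/kg.

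The third question is whether the changes at high dose persisted. After 14 days at the same dose, against controls of that day, 28 of the 301 miRNAs were DEMs (9.30%), and after 28 days 46 were (15.3%). The 28 were 17 higher and 11 lower, and the 46 were 39 higher and 7 lower. Of the 54 miRNAs that were higher at 7-d, 5 were again higher DEMs at 14-d, 4 were lower DEMs and 45 were not called. At 28-d 15 of the 54 were higher DEMs, 0 were lower and 39 were not called. Of the 10 that were lower at 7-d, 0 were lower DEMs at 14-d or 28-d. With only 11 and 7 lower DEMs among all 301 on those days, 0 of 10 is near the share of all tested miRNAs. The median log2 fold change of the 54 was 1.20 at 7-d, 0.06 at 14-d and 0.25 at 28-d, beside medians of all miRNAs of -0.04 and 0.06 at the later days. As the 54 were picked at 7-d, their median at 7-d is a description, and lower medians at the later days can follow from that choice.

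The difference of the effects at 7-d and 14-d was tested in a fit of 12 libraries. It passed for 53 miRNAs (17.6%), 41 with a larger value at 7-d and 12 with a smaller value, and 34 of the 53 had an adjusted p below 0.05. With TMM 33 and 24 were found, with the size factors of DESeq2 36 and 22. Of the 53, 44 were also DEMs at 7-d, and the same 7-d libraries entered both tests. miR-34a-5p was at 21.2, 30.2 and 25.95 RPM in control 14-d and at 44.05, 112 and 80.0 RPM in high dose 14-d. It was still higher than its controls (1.40 ± 0.33), but by less than at 7-d, the difference of the effects being 2.33 ± 0.44 (adjusted p = 0.00633, edgeR). miR-6329 was at 25.7, 38 and 32.3 RPM in control 14-d and at 48.4, 57.4 and 48.4 RPM in high dose 14-d, and its effect was smaller than at 7-d by 2.52 ± 0.23 (adjusted p = 2.74e-05, edgeR). miR-21-3p was between 157 and 220 RPM in control 14-d and between 82.2 and 247 RPM in high dose 14-d, with a log2 fold change of -0.44 ± 0.37. Its controls were thus higher at 14-d than at 7-d, and the difference of the effects was 2.31 ± 0.48. miR-132-3p (2.47 ± 0.46), miR-155-5p (1.64 ± 0.29) and miR-212-5p (3.84 ± 0.74) had effects at 14-d of -0.50, -0.33 and -0.50, none of which passed. Among the lower DEMs, miR-200b-3p and miR-335 had effects at 14-d of 0.23 and 0.36 that did not pass, and both differed from 7-d by -1.36 ± 0.34. miR-802-5p was a DEM at both days, lower at 7-d and higher at 14-d (0.67). miR-434-3p of the imprinted Dlk1-Dio3 cluster was not called at 7-d (-0.45) and was higher at 14-d by 2.40, from between 2.53 and 4.6 RPM in the controls to between 14.3 and 30.1 RPM.

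**Figure D5:**
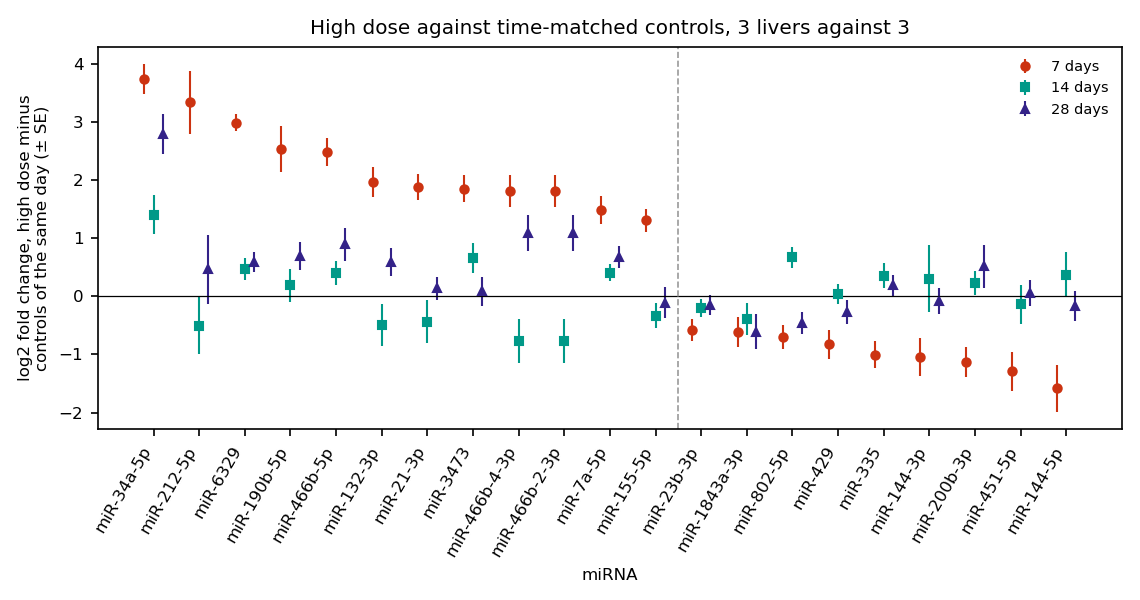
Log2 fold change of high dose against controls of the same day, with its standard error, after 7 days (red circles), 14 days (green squares) and 28 days (purple triangles) for the 12 higher and 9 lower DEMs of the plot of RPM by liver. The values at 14 and 28 days lie nearer to 0 than those at 7 days for all 21, and miR-34a-5p remains at 1.40 and 2.79. The 21 were picked by their values at 7 days, and values nearer to 0 on other days can follow from that choice.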

How the data were processed

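Per the study's methods, small RNA reads had their adaptors removed by the authors, those of 18 to 25 bases were retained, and miRDeep2 assigned them to the miRNAs of miRBase release 21. The deposited values are raw counts, without normalization, filter or pooling. A mature miRNA listed for several precursors (71 of 764) took the row of its most read precursor.

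Each comparison was a separate edgeR fit (version 4.0.16, R 4.3.3; quasi-likelihood F-test after upper quartile normalization, Benjamini-Hochberg adjustment over the 301 miRNAs). RPM are counts scaled by the library's assigned reads alone, unless stated. Standard errors were obtained as the absolute log2 fold change over the root of F. With 3 livers against 3, an exact permutation test of 1 miRNA cannot go below p = 0.1 (2-sided) and was not used. The 18 other libraries used held 4829217 to 14373693 reads. The fits were tested on counts simulated with a single dispersion for all groups, which leaves out the larger spread of the treated livers. No result above rests on that simulation. Tables were made with Python 3.11.15 and pandas 2.3.3.

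Named miRNAs are the 12 higher and 12 lower DEMs (9 were found) of smallest p-value without overlap, miR-34a, miR-455-3p and miR-122-5p, up to 3 members of each list, the leading DEMs of the other comparisons and the 5 most abundant; others are named as single values of their list, hairpin or cluster and were chosen after their values were seen. The rule for the members used labels alone, but members, lists and tests were chosen with earlier results of these data known. The alternatives were TMM normalization, DESeq2 1.42.0 size factors and Wald test, library size alone, other filters, edgeR's exact test, a fit of all 48 libraries, all 12 controls pooled, adjusted p-values, summed precursors and each library left out.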

Additional observations from a re-analysis of the deposited data

Results flagged for a closer look

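The following differences between treated groups passed a test of the difference itself, with an adjusted p below 0.05 in edgeR's quasi-likelihood test, and are given as log2 values. High dose 7-d differed from low dose 7-d by 1.16 for miR-6329, 1.31 for miR-132-3p, -0.72 for miR-378a-3p and -0.85 for miR-122-5p, and from middle dose 7-d by 1.20 for miR-6329. Against control 7-d, miR-122-5p changed by 0.75 at the low dose and by -0.11 at the high dose. The effect of high dose at 7-d, less that at 14-d, was 2.52 for miR-6329, 2.33 for miR-34a-5p, 2.09 for miR-466b-5p, 2.31 for miR-21-3p, 2.47 for miR-132-3p, 3.84 for miR-212-5p, 1.64 for miR-155-5p, 2.34 for miR-190b-5p, 1.19 for miR-3473, 1.08 for miR-7a-5p, 1.24 for miR-182 and 1.23 for miR-674-5p. It was 1.72 for miR-214-3p and 1.29 for miR-199a-5p, the 2 of 6 markers of stellate cells and smooth muscle that were higher at 7-d. The other 4 were not called at 7-d, and miR-143-3p, miR-145-5p and miR-145-3p among them lay below 0. At 14-d miR-199a-5p was a lower DEM (-0.60). The difference of the effects was -2.85 for miR-434-3p, -1.36 for miR-335, -1.36 for miR-802-5p and -1.36 for miR-200b-3p. With 3 livers in a group, no single liver was tested as an outlier.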

How the results depend on the processing

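No paired analysis was possible because the replicate numbers run from 1 to 48 over the whole series and no group shares a number with another. Of the 41 DEMs of the comparison with control 7-d whose changes were followed, 27 stayed DEMs under every alternative that could be run and with each library left out, among them miR-34a-5p (3.46 to 4.19), miR-6329 (2.79 to 3.08) and miR-21-3p (1.14 to 2.01). The other 14 lost the call somewhere: miR-214-3p only by adjusted p-values, miR-429 by these and with all controls pooled, miR-466b-3p with all controls pooled, miR-191a-5p without high dose replicate 25, miR-199a-5p without high dose replicate 26 and under 4 other settings, miR-1843a-3p and miR-365-3p without any of 4 libraries, and miR-21-5p, miR-183-5p, miR-96-5p, miR-29b-3p, miR-144-3p, miR-802-5p and miR-23b-3p as given with their values. The number of DEMs against control 7-d was 64, and 40 with at least 5 RPM in every library and 39 by adjusted p-values. Against low dose 7-d it was 56, and 4 by adjusted p-values. Against middle dose 7-d it was 39, and 63 without a filter, 21 with 5 RPM in every library and 1 by adjusted p-values. For the 7-d and 14-d effects it was 53, and 91 without a filter, 34 with 5 RPM in every library and 34 by adjusted p-values. Leaving out a library gave 51 to 79 DEMs against control (79 without high dose replicate 26), 36 (without low dose replicate 48) to 86 (without high dose replicate 27) against low dose, 25 (without middle dose replicate 35) to 72 (without high dose replicate 26) against middle dose, and 48 to 70 for the effects. The log2 fold change of miR-34c-5p, 0.02, changed sign: it was -0.045 with TMM, -0.090 with DESeq2's size factors, -0.091 with its Wald test, -0.16 without a filter, and -0.083 to 0.11 with a library left out. That of miR-100-5p was -0.15 without high dose replicate 26 and up to 2.28 without another library, and that of miR-743b-3p was -0.14 without high dose replicate 27 and up to 3.80. The causes were not tested. Depth limits the miRNAs near 0.357 RPM, such as miR-212-5p in the controls.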
